A study of Mus musculus with 32 samples.

Results

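The genes described here are 54 mouse genes for repair of DNA by routes other than mismatch repair, taken from a list of named symbols among the 54532 gene identifiers of the count table. They fall into 7 functional classes. There are 9 glycosylases of base excision repair, 8 genes for its later steps and for single-strand breaks, 11 genes of nucleotide excision repair, 6 of end joining, 10 of break sensing and homologous recombination, 4 of crosslink repair and 6 synthesis factors used by several routes. All 54 had counts in every mouse, and 53 passed the filter on low counts. Neil3, a glycosylase for oxidised bases, did not pass, with 1 count in the lowest library.

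RNA was sequenced from the striatum of 32 mice aged 6 months, all on the C57BL/6J strain, with 8 mice in each of 4 genotypes. The zQ175 allele puts an expanded CAG repeat into the mouse's own Htt gene, which encodes huntingtin, and the mice serve as a model of Huntington's disease. Msh3-/- mice lack the mismatch repair gene Msh3 through a deletion made by CRISPR, and zQ175:Msh3-/- mice carry both changes, while wild-type mice carry neither. Each genotype had 4 females and 4 males except zQ175:Msh3-/-, which had 3 females and 5 males. The mice were littermates from crosses of these alleles, and each mouse gave 1 library of 12359347 to 25030335 counts.

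DNA repair routes differ in the damage they act on. In base excision repair a glycosylase removes an altered base, the nuclease Apex1 cuts the strand, and a polymerase and a ligase fill and seal the gap. Nucleotide excision removes a stretch of strand around a bulky lesion, and end joining reseals broken ends held by the Ku proteins Xrcc5 and Xrcc6 with the kinase Prkdc. Neurons no longer divide, so they depend on excision and end joining more than on homologous recombination, which uses a sister chromatid. Fan1 and Lig1 are also known as genes where human variants modify the age at onset of Huntington's disease.

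Msh3, the targeted gene, was lower in the mice labelled as lacking it. It read 22.9, 23.7 and 27.5 normalised counts per 1000000 counts (CPM, lowest, median and highest of 8 mice) in wild-type and 10.4, 11.5 and 13.6 in Msh3-/- mice. It was 22.8, 24.1 and 27.4 CPM in zQ175 mice and 11.1, 12.8 and 14.2 in zQ175:Msh3-/- mice, so no mouse lacking Msh3 overlapped a mouse of the matching group that has it. The counts cover the whole gene, including exons outside the deletion, so they do not show how much intact transcript remained. The log2 fold change was -1.06 against wild-type (adjusted p = 2.56e-15, the quasi-likelihood test of edgeR, adjusted by Benjamini-Hochberg) and -0.92 against zQ175 (adjusted p = 1.42e-13). Of 9 markers of spiny neurons, the main cell type of the striatum, 8 were lower past both thresholds in zQ175 mice with and without Msh3, and their summed level was 7633 to 9357 CPM in wild-type and 4086 to 5347 CPM in zQ175 mice. In these bulk samples, fewer cells of a type and less RNA per cell cannot be told apart. All 7 endothelial markers had negative estimates, with medians of -0.26 and -0.18 in zQ175 mice with and without Msh3, and 3 of them passed both thresholds in the first. All 8 microglia markers also had negative estimates, with medians of -0.11 and -0.17, of which 3 and 6 passed by adjusted p alone. The median of 8 astrocyte markers was -0.11 in each, with estimates of both signs. With Msh3, 1 was higher and 1 lower past both thresholds, and 3 more were lower by adjusted p alone. Without it, 4 were lower by adjusted p alone. The 8 oligodendrocyte markers had medians of -0.10 and -0.16, with 2 lower past both thresholds with Msh3. The 6 markers of oligodendrocyte precursors had medians of -0.004 and -0.07, with 1 lower past both thresholds with Msh3. Choroid plexus markers summed to more than 500 CPM in 7 mice from all 4 genotypes. All 5 markers of cortical neurons had positive estimates in both comparisons, with median log2 changes of 0.65 and 0.62, and none passed there. In the zQ175 effect averaged over both Msh3 genotypes their median was 0.60, and 1 was higher past both thresholds. The part of these cell types in the values that follow was not tested, apart from alternative fits. Those fits left out the 7 mice or added the summed cortical and choroid markers as covariates.

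Levels between genes were compared per length, in transcripts per 1000000 transcripts (TPM), as means over the 32 mice. Ddb1, a subunit of the ligase complex that finds ultraviolet damage and of many other ubiquitin ligases, was highest at 133 TPM (SD 5.68), followed by the base excision nuclease Apex1 at 61.6, the break sensor Trp53bp1 at 52.2 and Rpa1, the large subunit of the single-strand binding protein, at 47.4. The nick sensor Parp1 (44.7 TPM) and the gap-filling polymerase Polb (44.1 TPM) came next and did not differ beyond their spread over mice. In all, 28 genes averaged 10 TPM or more, 22 lay between 1 and 10, and 4 lay under 1 TPM: Pole, Fanca, Fanci and Neil3. The highest gene of each class was Tdg among glycosylases, Apex1 among the later base excision steps, Ddb1 in nucleotide excision, Xrcc5 in end joining, Trp53bp1 in break sensing, Fan1 in crosslink repair and Rpa1 among the synthesis factors. The Ku subunits Xrcc5 (19.1 TPM, SD 2.39) and Xrcc6 (18.3 TPM, SD 1.62) were within their spread of each other, and Prkdc averaged 7.68 TPM. The recombination gene Brca1 stood at 1.38 TPM, the crosslink repair gene Fancd2 at 1.93 and Pole, the leading-strand polymerase, at 0.836 (SD 0.300).

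**Figure D1:**
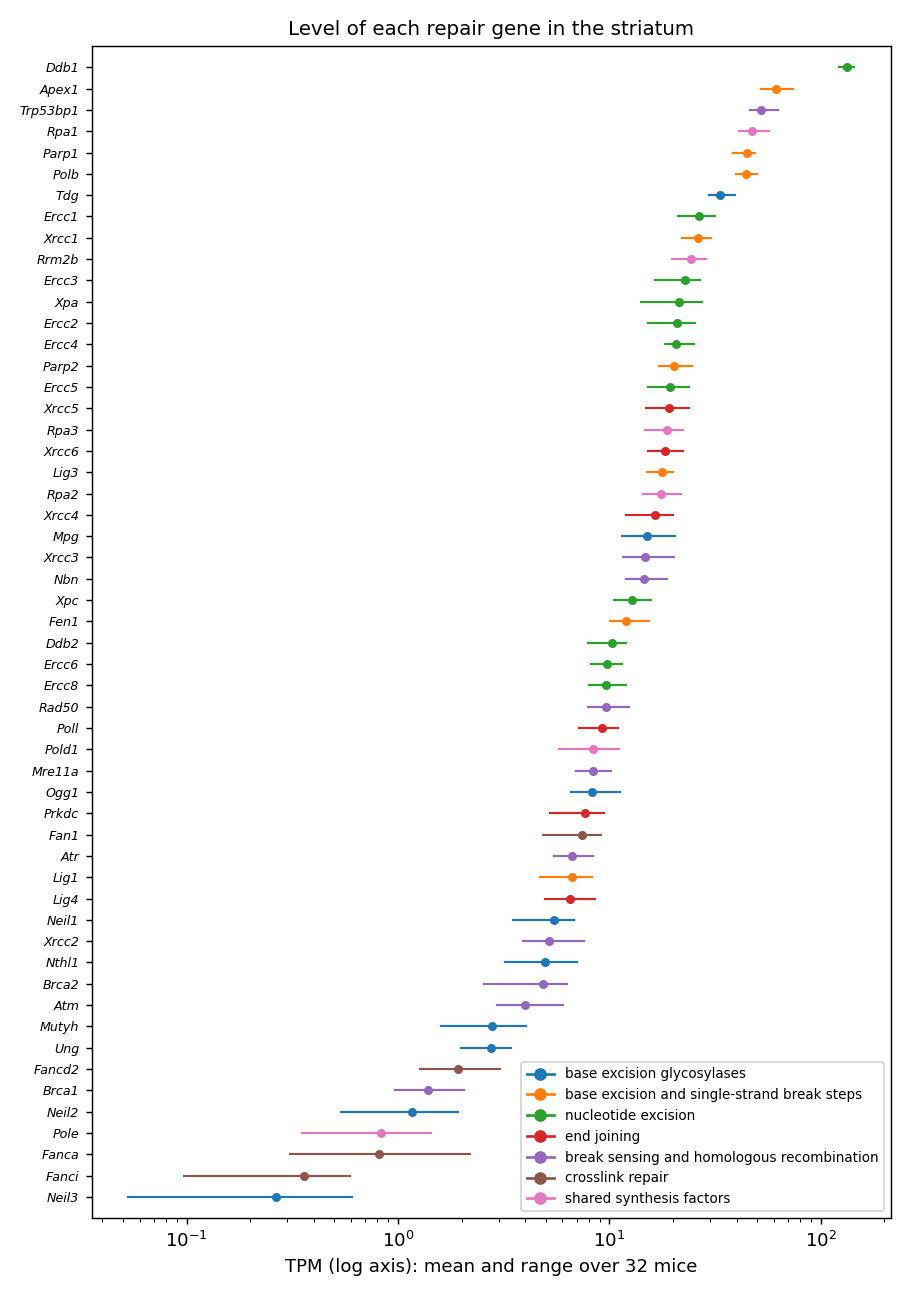
Level of each of the 54 repair genes in TPM on a log axis, coloured by functional class, with the mean (point) and the lowest and highest of the 32 mice (line). Ddb1 stands at the top at 133 TPM, and Pole, Fanca, Fanci and Neil3 lie under 1 TPM with wide ranges.

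The first comparison asked which repair genes differ in zQ175 as compared to wild-type striatum. Lig1, Prkdc, Xpa and Pole rose and Ung fell, by an adjusted p under 0.05 and a change of at least 1.2-fold. These 5 of 53 genes are 9.43% of those tested, beside 11.6% of the 16610 genes in the whole fit, with 4 higher (beside 4.7% of all genes) and 1 lower (beside 6.89%). By adjusted p alone 11 were higher (20.8%, beside 13% of all genes) and 3 lower (5.66%, beside 13.5%), together 26.4%, beside 26.5% of all genes. Calls in both directions together were about as frequent as in all genes, with more of them higher and fewer lower. Among the estimates, 36 of 53 were above 0 (67.9%, beside 53% of all genes), and the median log2 change was 0.06, beside 0.01 for all genes.

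The second comparison asked the same in mice lacking Msh3, zQ175:Msh3-/- against Msh3-/-, which share no mouse with the first. Here Xrcc5, Prkdc and Rrm2b rose past both thresholds, 3 of 53 genes or 5.66%, beside 10.6% of all genes, of which 4.68% were higher and 5.96% lower. By adjusted p alone 9 were higher (17.0%, beside 11.8% of all genes) and 2 lower (3.77%, beside 12.3%), together 20.8%, beside 24.1% of all genes. Again 36 of 53 estimates were above 0 (67.9%, beside 53.6% of all genes), with a median of 0.04 beside 0.01. When the zQ175 effect was averaged over both Msh3 genotypes, Lig1, Prkdc, Pole and Mutyh passed both thresholds, all higher (7.55%, beside 13.7% of all genes, 6.32% higher and 7.38% lower), and 17 were higher (32.1%, beside 20.9%) and 5 lower (9.43%, beside 18.7%) by adjusted p alone, together 41.5%, beside 39.6%.

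**Figure D2:**
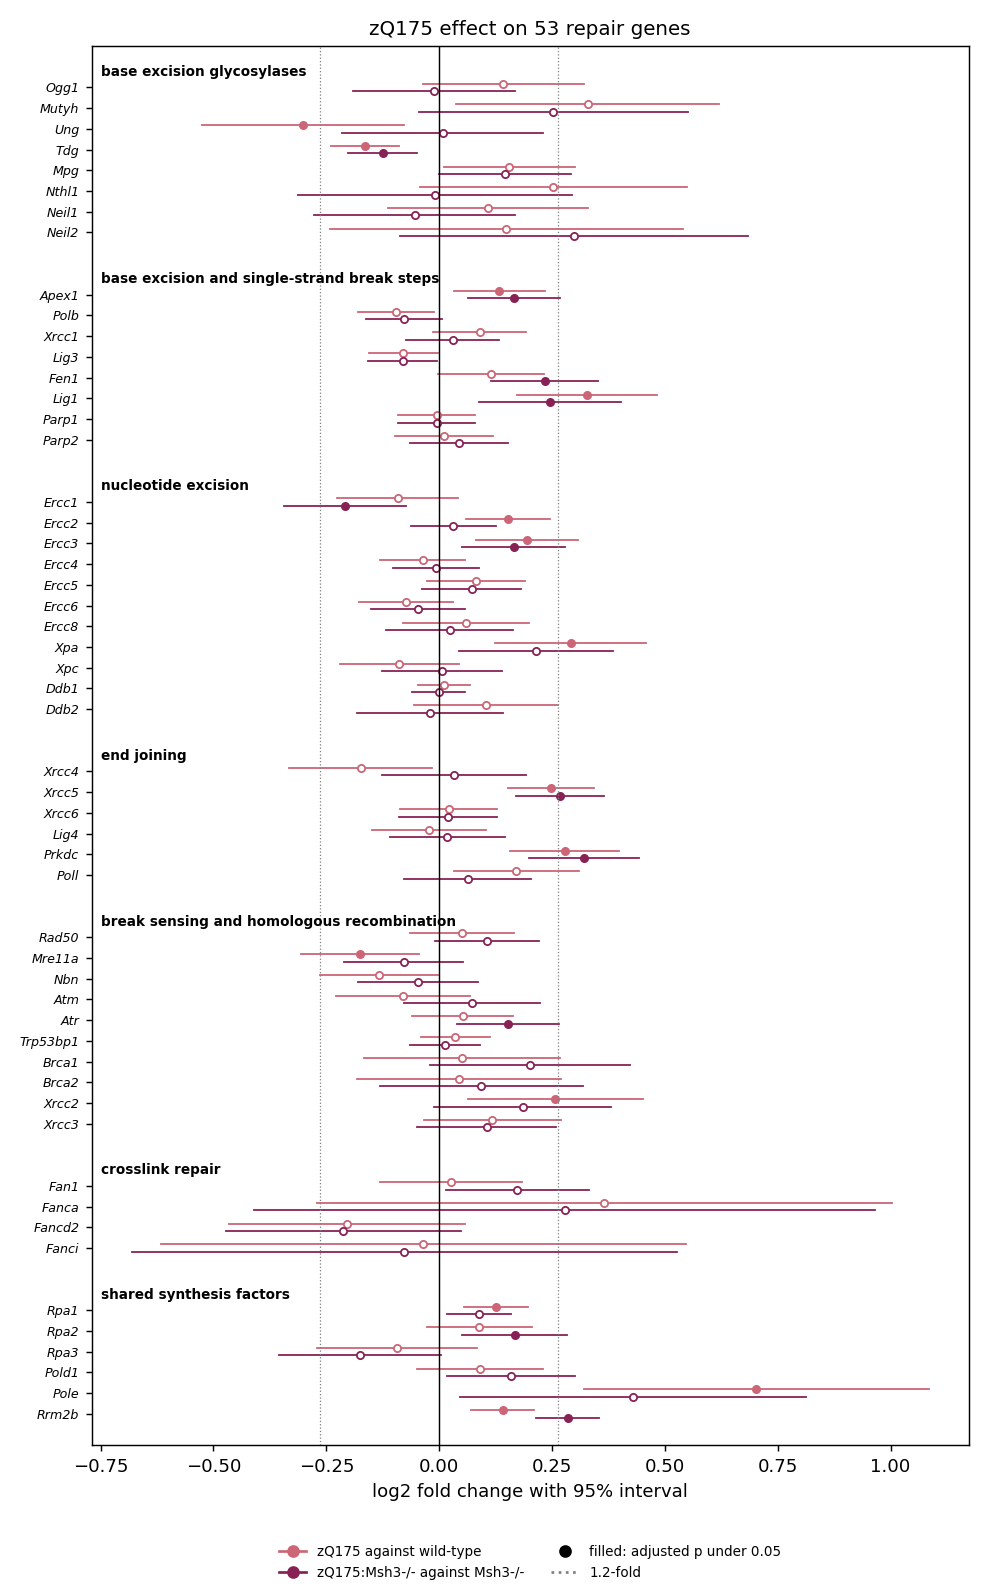
Log2 fold change of 53 repair genes, grouped by class, in zQ175 against wild-type and in zQ175:Msh3-/- against Msh3-/- (8 mice a group), with 95% intervals, filled points for an adjusted p under 0.05 and dotted lines at 1.2-fold. Xrcc5, Prkdc, Lig1, Apex1, Ercc3 and Rrm2b are filled to the right and Tdg to the left in both comparisons, and most other intervals stay near or across 0.

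End joining held the members with the smallest adjusted p in zQ175 against wild-type. Xrcc5 encodes Ku80, which with Ku70 from Xrcc6 forms the ring that binds broken DNA ends. Xrcc5 (ENSMUSG00000026187) lies on chromosome 1 from 72307421 to 72394952 in GRCm38, and Xrcc6 (ENSMUSG00000022471) on chromosome 15 from 81987835 to 82040085. The 250 bases before their RefSeq starts are shown because the subunits act as a pair yet differed in the measurements that follow. They stand at chr1:72307171-72307420 and chr15:82016119-82016368 of GRCm38.p6, both on the plus strand, written 5′ to 3′ with motif matches in capitals. The Xrcc6 start in RefSeq lies inside the longer span that GENCODE gives this gene.
Xrcc5: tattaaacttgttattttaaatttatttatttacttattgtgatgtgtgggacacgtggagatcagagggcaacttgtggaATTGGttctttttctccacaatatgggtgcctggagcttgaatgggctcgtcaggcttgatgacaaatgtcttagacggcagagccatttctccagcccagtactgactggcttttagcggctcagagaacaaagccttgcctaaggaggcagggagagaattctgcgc
Xrcc6: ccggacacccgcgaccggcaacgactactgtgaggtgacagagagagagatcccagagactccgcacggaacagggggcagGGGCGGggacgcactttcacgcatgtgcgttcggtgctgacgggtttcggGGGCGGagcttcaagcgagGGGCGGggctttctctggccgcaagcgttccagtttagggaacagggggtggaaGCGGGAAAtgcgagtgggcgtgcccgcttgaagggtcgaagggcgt
The Xrcc5 window is 44.8% G or C and holds 1 CCAAT box (CCAAT, here on the minus strand) and no GC box (GGGCGG). The Xrcc6 window is 65.2% G or C and holds 3 GC boxes and 1 E2F motif (TTTCCCGC, here on the minus strand).

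Xrcc5 read 17.9, 19.2 and 19.9 CPM (lowest, median and highest of 8 mice) in wild-type and 19.8, 22.5 and 25.4 CPM in zQ175 mice. In mice lacking Msh3 it read 16.6, 18.6 and 20.7 CPM without and 19.4, 22.7 and 24.2 CPM with the expanded repeat. The zQ175 mice with Msh3 lay above nearly all wild-type mice and overlapped them only at the edge, and those lacking Msh3 overlapped their controls a little more. The increase was 18.7% (95% interval 11.1 to 26.9) in the first comparison, with log2 0.25 ± 0.05 (SE) and adjusted p = 0.000112 (edgeR's quasi-likelihood test, Benjamini-Hochberg), which is just under 1.2-fold. It was 20.4% (12.5 to 28.7) in the second, with log2 0.27 ± 0.05 and adjusted p = 5.45e-05, which is just over 1.2-fold. The exact two-sided permutation test over the 16 mice gave p = 0.000466 and 0.000622, where the smallest p it allows is 0.000155. On the log2(TPM + 0.1) scale limma gave 0.30 in the first comparison, past both thresholds. That scale put the median of all genes there at 0.07 with the filter and 0.04 without it, beside 0.01 by counts. The fold in the second comparison fell under 1.2 without the filter on low counts, in females alone and with cortical and choroid marker covariates.

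Xrcc6 stayed level within its errors. It read 13.0, 14.9 and 16.0 CPM in wild-type, 13.8, 15.1 and 16.5 in zQ175, 13.3, 14.3 and 17.8 in Msh3-/- and 13.3, 14.9 and 15.8 in zQ175:Msh3-/- mice, so all 4 groups overlapped through most of their range. The changes were 1.49% (95% interval -5.77 to 9.32) and 1.35% (-5.98 to 9.26), and both upper bounds lie below the lower bounds for Xrcc5. Of the Xrcc6 exonic bases, 7.69% are shared with the opposite-strand gene Desi1, which averaged 134 CPM. The deposited counts do not say how reads there were assigned. Desi1 changed by log2 -0.12 (adjusted p = 0.108, edgeR) and -0.16 (adjusted p = 0.0305), and its part in the Xrcc6 values was not tested. Within single mice the CPM of Xrcc5 over that of Xrcc6 was 1.18, 1.24 and 1.53 (lowest, median, highest) in wild-type and 1.2, 1.53 and 1.68 in zQ175 mice. In mice lacking Msh3 it was 0.986, 1.30 and 1.44 without and 1.31, 1.51 and 1.74 with zQ175. This ratio was looked at after the values were seen and is given without a test.

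Prkdc encodes the catalytic subunit of the DNA-dependent protein kinase, which docks on the Ku ring at a broken end. Its gene (ENSMUSG00000022672) spans chromosome 16 from 15637866 to 15842235. Prkdc read 34.0, 36.5 and 40.7 CPM in wild-type and 40.1, 45.0 and 49.6 CPM in zQ175 mice. Without Msh3 it read 28.3, 35.5 and 44.0 CPM in the controls and 40.4, 44.5 and 49.7 CPM in zQ175:Msh3-/- mice. The groups with Msh3 barely touched, while the Msh3-/- group was wide and its top mice reached into the zQ175:Msh3-/- range. The log2 fold change was 0.28 ± 0.06 (adjusted p = 0.000456, edgeR with Benjamini-Hochberg) and 0.32 ± 0.06 (adjusted p = 0.000104), or 21.3% and 24.9%. Exact two-sided permutation p was 0.000466 and 0.000932. Prkdc kept its direction in every alternative, but did not pass in females alone (0.22, adjusted p = 0.138 in the first comparison by edgeR, and adjusted p = 0.0596 in the second), and without the 7 mice with choroid plexus markers it fell under 1.2-fold in the first (0.25, adjusted p = 0.00339).

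The ratio of Xrcc5 to Prkdc within a mouse had similar medians in the 4 groups, at 0.507 in wild-type and 0.522 in zQ175 mice, and at 0.497 and 0.510 in their counterparts lacking Msh3. The other end joining genes did not pass. They were the ligase Lig4 (-0.02 and 0.02, log2, first and second comparison), its partner Xrcc4 (-0.17 and 0.03) and the gap-filling polymerase Poll (0.17, adjusted p = 0.062 by edgeR, and 0.06).

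**Figure D3:**
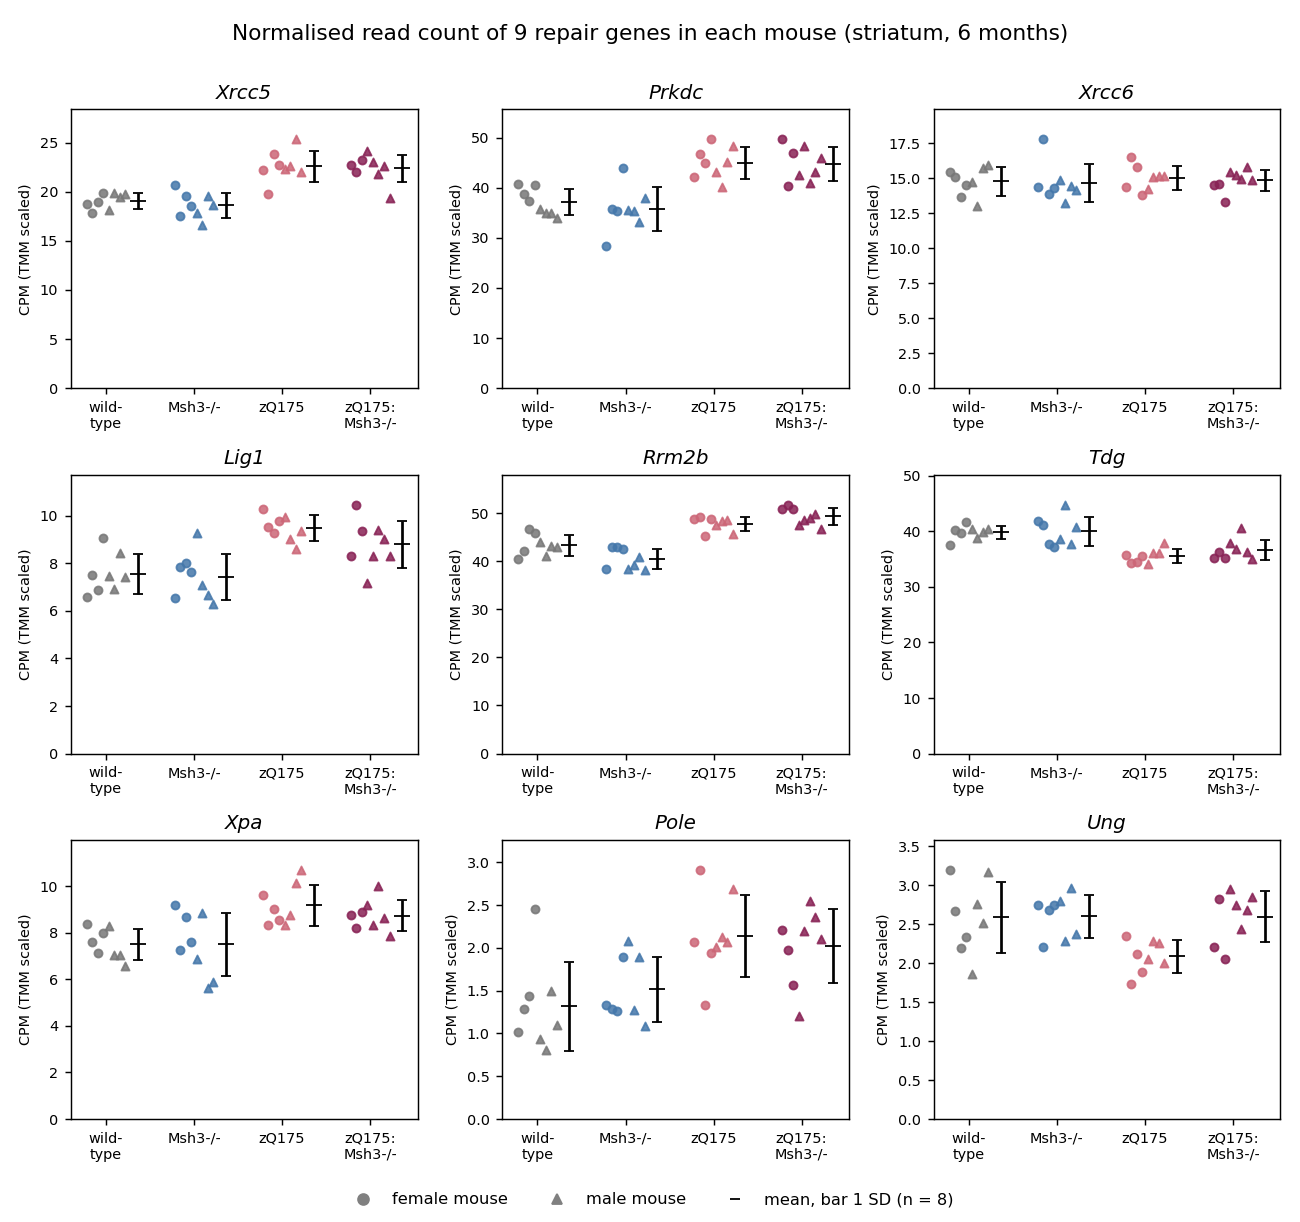
Normalised read count (CPM, TMM scaled, axes from 0) of Xrcc5, Prkdc, Xrcc6, Lig1, Rrm2b, Tdg, Xpa, Pole and Ung in each mouse by genotype, circles for females and triangles for males, with the mean and 1 SD (n = 8) beside each group. Xrcc5, Prkdc and Rrm2b sit higher in both groups with the zQ175 allele, Xrcc6 is level over the 4 groups, and Ung is low in zQ175 but not in zQ175:Msh3-/- mice.

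Among the later steps of base excision and single-strand break repair, Lig1, Apex1 and Fen1 were higher by adjusted p. Lig1 encodes the ligase that seals nicks after replication and long-patch base excision. It (ENSMUSG00000056394) lies on chromosome 7 from 13277283 to 13311433. It read 6.58, 7.45 and 9.07 CPM in wild-type and 8.60, 9.45 and 10.3 CPM in zQ175 mice. It read 6.29, 7.37 and 9.29 CPM in Msh3-/- and 7.17, 8.68 and 10.5 CPM in zQ175:Msh3-/- mice. Every zQ175 mouse with Msh3 was above the wild-type median, and the groups lacking Msh3 overlapped widely. The log2 change was 0.33 ± 0.08 in the first comparison (25.5%, adjusted p = 0.00122, edgeR with Benjamini-Hochberg, exact two-sided permutation p = 0.000466). In the second it was 0.24 ± 0.08 (18.5%, adjusted p = 0.0184, permutation p = 0.0157), under 1.2-fold. In the first comparison the call was lost in males alone (0.29, adjusted p = 0.111). In the second Lig1 passed both thresholds in 6 of the 14 alternatives, with changes of 0.21 to 0.34 over all 14. The deposited counts do not say how reads in the 5.79% of Lig1 exonic bases shared with Zswim9 were assigned, and that gene changed by -0.07 and 0.06.

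The sequence before the RefSeq start of Lig1, chr7:13276925-13277174 on the plus strand, is shown with that of Tdg, the gene described next that moved the other way, at chr10:82629588-82629837 on the plus strand. Capitals mark motif matches as above.
Lig1: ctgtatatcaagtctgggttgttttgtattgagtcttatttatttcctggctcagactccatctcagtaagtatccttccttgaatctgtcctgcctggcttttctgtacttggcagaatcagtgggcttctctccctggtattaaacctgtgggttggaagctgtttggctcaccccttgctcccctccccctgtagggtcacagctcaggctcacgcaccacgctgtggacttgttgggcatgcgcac
Tdg: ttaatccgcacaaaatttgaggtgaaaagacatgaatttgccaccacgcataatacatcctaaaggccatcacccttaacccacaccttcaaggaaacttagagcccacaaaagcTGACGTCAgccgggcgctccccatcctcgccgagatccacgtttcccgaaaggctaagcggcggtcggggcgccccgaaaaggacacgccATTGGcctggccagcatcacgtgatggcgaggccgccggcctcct
The Lig1 window holds none of the motifs searched. The RefSeq start used for Lig1 lies before the GENCODE start of the gene at 13277283. Bases shortly after that RefSeq start were not found in a GENCODE transcript of Lig1. The Tdg window holds 1 CCAAT box and 1 cyclic AMP response element (TGACGTCA). RefSeq promoters were found for 41 of the 54 genes and 27025 genes in all, and each motif was searched on both strands in the 250 bases before the start. A CCAAT box stood in 21 of the 41 (51.2%, beside 34.5% of all promoters) and a GC box in 25 (61.0%, beside 32.9%). An E2F motif (TTTCCCGC, TTTCGCGC, TTTGCCGC or TTTGGCGC) stood in 3, Brca2, Nthl1 and Xrcc6 (7.32%, beside 1.91%), the cyclic AMP element in 2, Brca2 and Tdg (4.88%, beside 1.62%), and the palindromic NRF1 motif in 1, Lig4 (2.44%, beside 0.781%). The 27025 promoters were not limited to genes that passed the filter on low counts, while nearly all of the 54 genes passed it. The shares of members and of all promoters thus come from unlike sets of genes. None of these motifs contains another, and a match is a description of the letters. Promoters of Ddb2, Ercc3, Fancd2, Nbn, Neil2, Polb, Pole, Poll, Prkdc, Rad50, Rrm2b, Xpc and Xrcc2 were not analysed here.

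Apex1 cuts the strand at a site that lost its base. It read 26.5, 28.9 and 32.1 CPM in wild-type and 27.3, 33.3 and 34.5 CPM in zQ175 mice, with log2 0.13 ± 0.05 (adjusted p = 0.0427, edgeR). In mice lacking Msh3 it read 26.2, 28.7 and 31.0 CPM without and 28.8, 31.4 and 35.9 CPM with zQ175, with log2 0.17 ± 0.05 (adjusted p = 0.0130). The groups overlapped in both comparisons, and 61.7% of its exonic bases are shared with Pip4p1, whose own changes were 0.04 and -0.02. Fen1, the nuclease that trims displaced flaps, read 10.1, 11 and 11.7 CPM in wild-type and 10.5, 11.6 and 14.7 CPM in zQ175 mice, with log2 0.11 ± 0.06 (adjusted p = 0.151, edgeR). It read 9.86, 10.9 and 11.2 CPM in Msh3-/- and 12, 12.3 and 14.4 CPM in zQ175:Msh3-/- mice, with log2 0.23 ± 0.06 (adjusted p = 0.00286). These last 2 groups did not overlap (beside 5.39% of all genes in this comparison), and the exact two-sided permutation p of 0.000155 is the smallest that 8 against 8 mice allow. The antisense gene Gm10143, at 0.292 CPM, covers 78.8% of the exonic bases of Fen1, and with no strand setting stated their reads cannot be told apart. The Fen1 change was under 1.2-fold in the fit of counts and passed both thresholds with limma on TPM. Those limma settings put the median of all genes in this comparison at 0.06 to 0.09, beside 0.01 by counts.

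The remaining genes of this class did not pass in either comparison. Over both Msh3 genotypes together the polymerase Polb (-0.09, adjusted p = 0.0177, edgeR) and the ligase Lig3 (-0.08, adjusted p = 0.0155) were lower at a small fold. Of the exonic bases of Lig3, 25.1% are shared with the opposite-strand gene Rffl, which changed by 0.13 and 0.08. The break sensors Parp1 (-0.01 in each) and Parp2 (0.01 and 0.04) and the scaffold Xrcc1 (0.09 and 0.03) had estimates near 0.

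Of the glycosylases, Tdg was lower in both comparisons. Tdg encodes the thymine DNA glycosylase, which removes thymine from mismatches with guanine and oxidised forms of methylcytosine. The gene (ENSMUSG00000034674) lies on chromosome 10 from 82629828 to 82650799. It read 37.6, 40.1 and 41.7 CPM in wild-type and 34.1, 35.6 and 37.9 CPM in zQ175 mice. It read 37.2, 39.7 and 44.8 CPM in Msh3-/- and 35.1, 36.3 and 40.6 CPM in zQ175:Msh3-/- mice. Only the edges of the ranges overlapped with Msh3 present, and more of them without it. Expression changed by -10.8% (log2 -0.16 ± 0.04, adjusted p = 0.000807 by edgeR, exact two-sided permutation p = 0.000311) and by -8.33% (log2 -0.13 ± 0.04, adjusted p = 0.0117, permutation p = 0.00948), in both cases under 1.2-fold.

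Ung, the glycosylase that removes uracil from DNA, fell in zQ175 as compared to wild-type mice and not in mice lacking Msh3. The gene (ENSMUSG00000029591) lies on chromosome 5 from 114130386 to 114139323. It read 1.87, 2.59 and 3.20 CPM in wild-type and 1.73, 2.09 and 2.35 CPM in zQ175 mice, with log2 -0.30 ± 0.11 (adjusted p = 0.0438, edgeR, exact two-sided permutation p = 0.0171). It read 2.20, 2.71 and 2.97 CPM in Msh3-/- and 2.05, 2.72 and 2.95 CPM in zQ175:Msh3-/- mice, with log2 0.01 ± 0.11 (adjusted p = 0.971). The zQ175 mice sat at the low end of a range that all groups shared. The difference between the 2 effects was 0.31 ± 0.16 (unadjusted p = 0.0547, adjusted p = 0.999, edgeR's interaction term), so a difference between the backgrounds was not shown. The call was lost under 10 of the 14 alternatives, with adjusted p from 0.0397 to 0.385.

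Mutyh removes adenine placed opposite an oxidised guanine. Its gene (ENSMUSG00000028687) lies on chromosome 4 from 116807723 to 116819440. It read 1.34, 1.47 and 2.02 CPM in wild-type and 1.18, 2.10 and 2.49 CPM in zQ175 mice, and 1.04, 1.67 and 2.00 CPM in Msh3-/- and 1.75, 1.92 and 2.23 CPM in zQ175:Msh3-/- mice. The ranges overlapped in both pairs of groups. It passed only in the effect averaged over both Msh3 genotypes (0.29 ± 0.10, adjusted p = 0.0221, edgeR), and lost that call without the filter on low counts (adjusted p = 0.0575), in females alone (0.04) and with a TPM pseudocount of 1. Mpg, which removes alkylated bases, was higher at 0.15 in the same averaged comparison (adjusted p = 0.0167, edgeR). Of the exonic bases of Mpg, 35.7% are shared with the opposite-strand gene Nprl3, which changed by -0.01 in each zQ175 comparison. The glycosylases for oxidised bases Ogg1 (0.14 and -0.01), Nthl1 (0.25 and -0.01), Neil1 (0.11 and -0.06) and Neil2 (0.15 and 0.30) did not pass in any comparison.

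In nucleotide excision repair, Xpa and Ercc3 were the members with the smallest adjusted p in zQ175 against wild-type. Ercc3 encodes the XPB subunit of the transcription factor TFIIH, which opens the DNA around a lesion. It read 19.7, 24.6 and 26.2 CPM in wild-type and 23.7, 28.5 and 30.1 CPM in zQ175 mice, with log2 0.20 ± 0.06 (adjusted p = 0.00791, edgeR, exact two-sided permutation p = 0.0110). It read 21.3, 25.0 and 26.9 CPM in Msh3-/- and 25.3, 27.8 and 30.0 CPM in zQ175:Msh3-/- mice, with log2 0.17 ± 0.06 (adjusted p = 0.0283, permutation p = 0.00311). Both changes were under 1.2-fold and the groups overlapped.

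Xpa, a scaffold that checks the opened lesion (ENSMUSG00000028329, chromosome 4 from 46155347 to 46196311), rose by 22.3% in zQ175 mice. It read 6.58, 7.36 and 8.37 CPM in wild-type and 8.33, 8.90 and 10.7 CPM in zQ175 mice, so the groups met only at the edge. The log2 change was 0.29 ± 0.08 (adjusted p = 0.00753, edgeR, exact two-sided permutation p = 0.000466). Without Msh3 the values were 5.61, 7.44 and 9.20 CPM in controls and 7.86, 8.71 and 10.0 CPM with zQ175, a change of 0.21 ± 0.08 (adjusted p = 0.0584, permutation p = 0.0334). The call in the first comparison was lost in males alone (0.38, adjusted p = 0.0602), in females alone (0.20, adjusted p = 0.194) and without the 7 mice with choroid plexus markers (0.24, adjusted p = 0.0667).

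Ercc2, the other TFIIH helicase, averaged 24.6 ± 1.5 CPM (SD, n = 8) in wild-type and 27.3 ± 1.27 in zQ175 mice (log2 0.15, adjusted p = 0.0121, edgeR), and differed by 0.03 in mice lacking Msh3. Ercc1, a subunit of the nuclease that cuts on the 5′ side of a lesion, averaged 14.8 ± 1.15 CPM in Msh3-/- and 12.9 ± 1.01 CPM in zQ175:Msh3-/- mice (log2 -0.21, adjusted p = 0.0193), with -0.09 in the first comparison. Its nuclease partner Ercc4 had estimates of -0.04 and -0.01. Of the exonic bases of Ercc1, 3.41% are shared with the opposite-strand gene Cd3eap, which changed by 0.04 and -0.13 (adjusted p = 0.564 and 0.0291, edgeR). Ercc2 shares 24.6% of its exonic bases with Gm26852 and 17.8% with Klc3, both on the opposite strand. The deposited counts do not say how reads in these stretches were assigned. Ddb1 read 220, 233 and 246 CPM in wild-type and 216, 235 and 244 CPM in zQ175 mice (log2 0.01 ± 0.03, adjusted p = 0.847) and changed by 0.00 in the second comparison. The damage sensors Xpc (-0.09 and 0.01) and Ddb2 (0.10 and -0.02), the nuclease Ercc5 (0.08 and 0.07) and the transcription-coupled repair genes Ercc6 (-0.07 and -0.05) and Ercc8 (0.06 and 0.02) did not pass.

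Among the factors shared by several routes, Rrm2b had the smallest adjusted p of all members in mice lacking Msh3. Rrm2b encodes the p53-inducible small subunit of ribonucleotide reductase, which supplies deoxynucleotides in cells that do not divide. The gene (ENSMUSG00000022292) lies on chromosome 15 from 37923952 to 37961318 on the minus strand. It read 40.5, 43.1 and 46.7 CPM in wild-type and 45.2, 48.4 and 49.2 CPM in zQ175 mice. It read 38.3, 40.1 and 43.0 CPM in Msh3-/- and 46.8, 49.3 and 51.8 CPM in zQ175:Msh3-/- mice. Groups lacking Msh3 did not overlap, as in 2 of the 53 members and beside 5.39% of all genes in this comparison. The groups with Msh3 overlapped slightly, and there 0 members were without overlap, beside 6.63% of all genes. The increase was 10.3% with Msh3 (log2 0.14 ± 0.03, adjusted p = 0.00184, edgeR, exact two-sided permutation p = 0.000932) and 21.8% without it (0.28 ± 0.03, adjusted p = 5.56e-08, permutation p = 0.000155). The call in mice lacking Msh3 held at 1.2-fold under all 14 alternative fits and was lost only at the 1.5-fold threshold.

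The larger Rrm2b estimate without Msh3 goes with a lower control level as well as a slightly higher level in the zQ175 mice. In Msh3-/- against wild-type mice Rrm2b changed by -0.10 (unadjusted p = 0.0097, adjusted p = 0.916, edgeR). The interaction was 0.14 ± 0.05 (unadjusted p = 0.00537, adjusted p = 0.999), so after adjustment over all genes the effects with and without Msh3 were not shown to differ.

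Pole, the catalytic subunit of polymerase epsilon, rose by the largest percentage and from a very low level. The gene (ENSMUSG00000007080) lies on chromosome 5 from 110286306 to 110337474. It read 0.806, 1.19 and 2.45 CPM in wild-type and 1.33, 2.07 and 2.91 CPM in zQ175 mice, with 14 counts in the lowest library of all. The log2 change was 0.70 ± 0.19 (62.8%, 95% interval 25.0 to 112, adjusted p = 0.00451, edgeR, exact two-sided permutation p = 0.00435). Without Msh3 it read 1.09, 1.31 and 2.08 CPM in controls and 1.2, 2.15 and 2.54 CPM with zQ175, a change of 0.43 ± 0.19 (adjusted p = 0.0961, permutation p = 0.0362). The groups overlapped in both comparisons, and the first call was lost in females alone (0.39, adjusted p = 0.369). In the effect averaged over both Msh3 genotypes (0.57) the call was lost in 3 of 13 alternatives, with changes of 0.19 to 0.73 over all 13. The 3 were females alone, limma on log2(TPM + 1) and limma without a filter. Markers of dividing cells, which use this polymerase, summed to 7.95 to 22.0 CPM in wild-type and 10.9 to 19.6 CPM in zQ175 mice and none of the 6 tested passed there. In mice lacking Msh3 these sums were 7.75 to 15.9 CPM and, with zQ175, 11.3 to 24.1 CPM, and 2 of the 6 were higher past both thresholds. Their part in the Pole values was not tested.

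Rpa1 read 45.1, 47.9 and 51.3 CPM in wild-type and 49.7, 52.4 and 56.6 CPM in zQ175 mice (log2 0.13 ± 0.04, adjusted p = 0.00569, edgeR) and changed by 0.09 in mice lacking Msh3 (adjusted p = 0.0657). Its partner Rpa2 averaged 12.6 ± 0.7 CPM (SD, n = 8) in Msh3-/- and 14.2 ± 1.08 CPM in zQ175:Msh3-/- mice (log2 0.17, adjusted p = 0.0295), with 0.09 in the first comparison. The smallest subunit, Rpa3, had estimates of -0.09 and -0.18 and did not pass. Pold1, the catalytic subunit of polymerase delta, passed by adjusted p only in the averaged comparison (0.12, adjusted p = 0.0416, edgeR). Of the 6 shared factors, 5 were higher and none lower by adjusted p in that averaged comparison, where 20.9% of all genes were higher and 18.7% lower.

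Of the 10 genes of break sensing and homologous recombination, 2 passed by adjusted p in the first comparison and 1 in the second, and of the 4 of crosslink repair none did, beside 26.5% and 24.1% of all genes. Mre11a, the nuclease of the complex that finds broken ends, averaged 17.4 ± 1.45 CPM (SD, n = 8) in wild-type and 15.4 ± 1.13 CPM in zQ175 mice (log2 -0.17, adjusted p = 0.0388, edgeR). Xrcc2, a gene of homologous recombination, averaged 6.17 ± 0.652 CPM in wild-type and 7.42 ± 1.51 CPM in zQ175 mice (0.26, adjusted p = 0.0418). The kinase Atr averaged 17.3 ± 0.994 CPM in Msh3-/- and 19.3 ± 1.43 CPM in zQ175:Msh3-/- mice (0.15, adjusted p = 0.0428). All were under 1.2-fold and none passed in the other comparison. The partners of Mre11a, Rad50 (0.05 and 0.11) and Nbn (-0.13 and -0.05), the kinase Atm (-0.08 and 0.07), and Brca1 (0.05 and 0.20), Brca2 (0.04 and 0.09) and Xrcc3 (0.12 and 0.10) of homologous recombination did not pass. Trp53bp1, which steers breaks toward end joining, read 107, 113 and 121 CPM in wild-type and 112, 116 and 126 CPM in zQ175 mice, with log2 0.04 in the first comparison.

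Fan1, a nuclease of crosslink repair, read 8.93, 10.7 and 11.8 CPM in wild-type and 8.95, 10.9 and 11.4 CPM in zQ175 mice (ENSMUSG00000033458, chromosome 7 from 64346758 to 64374095 on the minus strand). It read 7.16, 10.3 and 11.8 CPM in Msh3-/- and 9.14, 11.3 and 12.7 CPM in zQ175:Msh3-/- mice. The 4 groups overlapped through most of their range. The changes were 0.03 ± 0.08 (adjusted p = 0.848, edgeR) and 0.17 ± 0.08 (adjusted p = 0.106), with exact two-sided permutation p of 0.702 and 0.0755. In the first comparison the sign turned in females alone and without the 7 mice with choroid plexus markers. In the second the change ran from 0.06 in females alone to 0.26 over the alternatives. Its adjusted p ran from 0.0248 with limma on log2(TPM + 1) to 0.858 in females alone. It was under 0.05 in all 3 limma settings on TPM, which put the median of all genes at 0.06 to 0.09, beside 0.01 by counts. The Fanconi anaemia genes Fanca (0.37 and 0.28), Fancd2 (-0.20 and -0.21) and Fanci (-0.03 and -0.08) did not pass, and Fanca and Fanci rest on few reads, with 2 and 3 counts in their lowest libraries.

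Between the 2 zQ175 comparisons, 43 of 53 genes had the same sign (81.1%, beside 77.8% of all genes). By adjusted p, 7 genes passed in both, Apex1, Ercc3, Lig1, Prkdc, Rrm2b, Tdg and Xrcc5, all in the same direction. They are 50% of the 14 that passed with Msh3 present and 63.6% of the 11 that passed without it, beside 64.4% and 70.7% over all genes. The 7 that passed only with Msh3 were Ercc2, Mre11a, Pole, Rpa1, Ung, Xpa and Xrcc2, of which 6 had the same sign in the other comparison. The 4 that passed only without Msh3 were Atr, Ercc1, Fen1 and Rpa2, and all had the same sign with it. In 35 genes neither comparison passed (66%, beside 66.5% of all genes). No member had an interaction past the threshold by edgeR, DESeq2 or limma (0% of all genes passed), and only Rrm2b had an unadjusted p under 0.05. Interaction estimates ran from -0.27 for Pole to 0.31 for Ung, and 26 of 53 intervals lay within a 1.2-fold difference, and the other intervals still held a difference of that size between backgrounds.

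**Figure D4:**
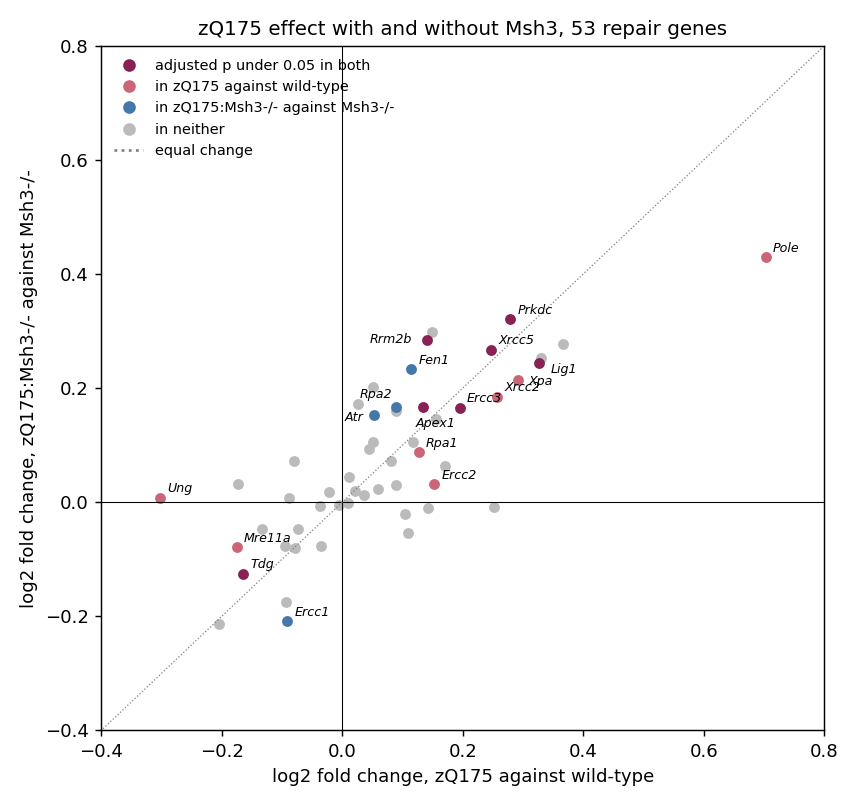
Log2 fold change of 53 repair genes in zQ175 against wild-type (horizontal axis) and in zQ175:Msh3-/- against Msh3-/- (vertical axis), coloured by the comparisons with an adjusted p under 0.05, with a dotted line of equal change. Of the 7 genes that passed in both, Tdg lies in the lower left and the others in the upper right, while Ung is far to the left near 0 on the vertical axis.

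The study also asked what loss of Msh3 does in either Htt genotype. None of the 53 genes passed in Msh3-/- against wild-type, in zQ175:Msh3-/- against zQ175, or in the average of both by edgeR, DESeq2 or limma. Of all genes 0.00602% passed by edgeR, which is Msh3 itself. The share was the same by DESeq2 and 0.00449% or 0.00304% by limma, with more genes tested. At an unadjusted p under 0.05 by edgeR there were 3 genes in Msh3-/- against wild-type (Ercc2, Nbn and Rrm2b). There were 2 in zQ175:Msh3-/- against zQ175 (Rpa2 and Ung) and 3 in the average (Brca2, Nbn and Ung). The averaged changes ran from -0.26 for Fanca to 0.18 ± 0.08 for Brca2, whose unadjusted p of 0.0252 was the smallest and whose adjusted p was 0.991. The median over members was 0.00, as over all genes, with 27 estimates above 0 and 26 below. In 45 of the 53 the 95% interval lay within a 1.2-fold change either way, and the others were Brca2, Fanca, Fancd2, Fanci, Neil2, Nthl1, Pole and Ung. For Lig1 the averaged change was -0.07, for Fan1 0.01, for Xrcc5 -0.03 and for Prkdc -0.03.

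**Figure D5:**
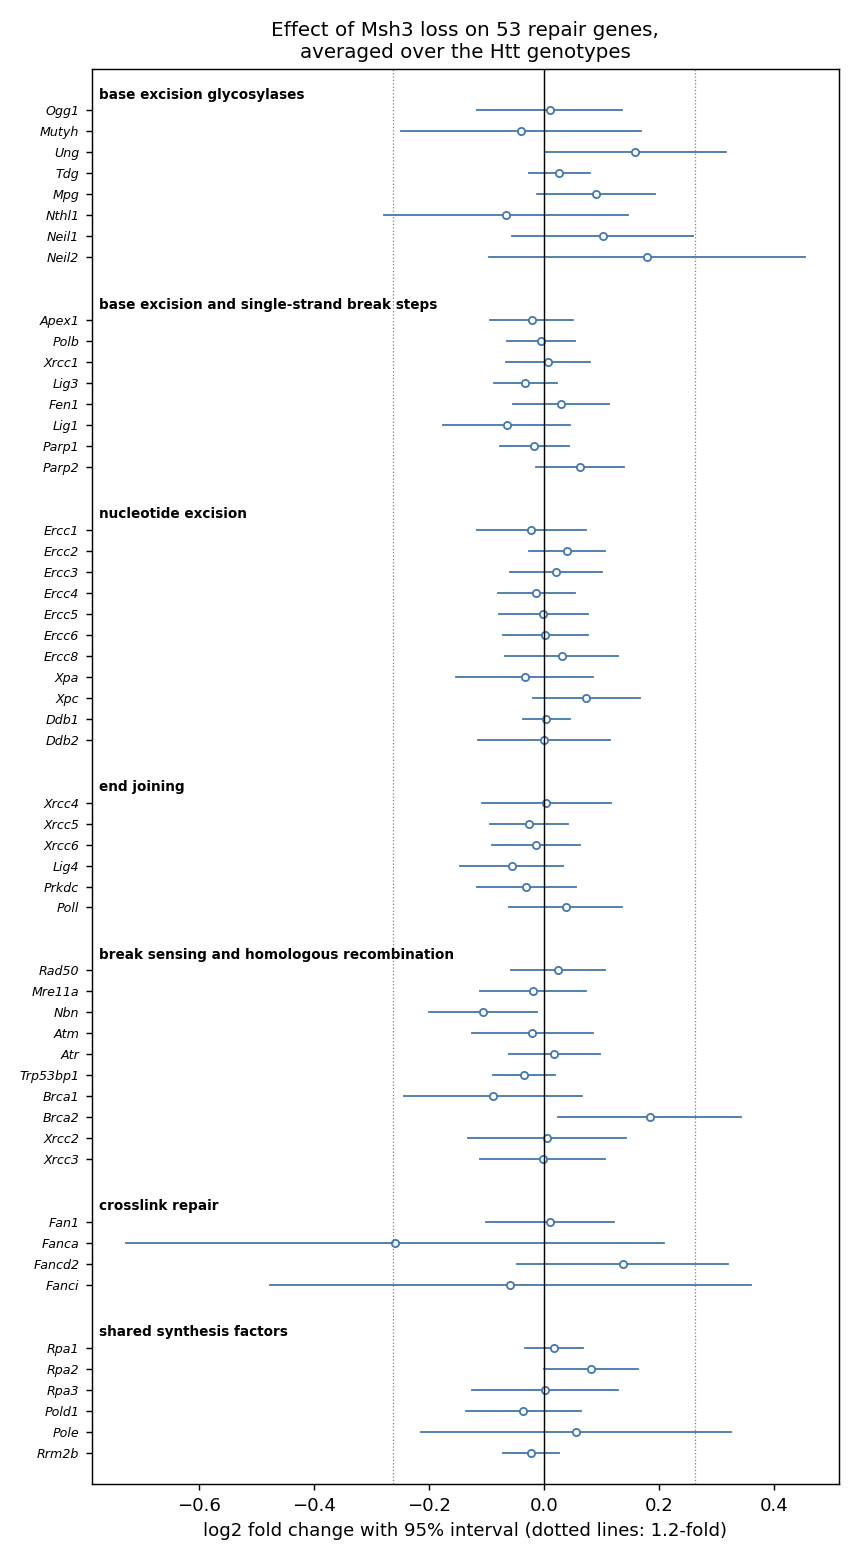
Log2 fold change of 53 repair genes on loss of Msh3, averaged over the Htt genotypes (16 mice against 16), with 95% intervals and dotted lines at 1.2-fold. Points scatter around 0, and 45 of the 53 intervals lie between the dotted lines.

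Sex was examined over all genotypes. No member differed between females and males by edgeR or DESeq2 (0.169% of all genes passed by edgeR), and 6 had an unadjusted p under 0.05 (Ddb1, Ercc4, Ercc6, Polb, Rrm2b and Xpc). Estimates of females against males ran from -0.10 for Xpc to 0.28 for Fanca, and 46 of 53 intervals lay within 1.2-fold. The zQ175 effect did not differ between the sexes past the threshold in any member (0% of all genes), with 4 at an unadjusted p under 0.05 (Mutyh, Nbn, Xpa and Xrcc2). For Mutyh the effect in females minus that in males was -0.50 ± 0.20 (unadjusted p = 0.0163, adjusted p = 0.943, edgeR).

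Another 95 repair genes of the same routes, outside the list, gave 2 higher and 2 lower past both thresholds among 91 tested in zQ175 against wild-type (4.40%, beside 11.6% of all genes) and 4 higher and 3 lower in the second comparison (7.69%, beside 10.6%). By adjusted p alone the shares were 18.7% and 20.9%, beside 26.5% and 24.1% of all genes. Those that passed in both were Rfc5, a subunit of the clamp loader, at -0.45 and -0.44 (adjusted p = 6.38e-07 and 1.32e-06, edgeR), Fancb of the Fanconi anaemia core complex at -0.59 and -0.56 (0.000358 and 0.000940), and Rbbp8, which helps trim broken ends, at 0.52 and 0.40 (0.00209 and 0.0207). Of 18 targets of the damage-response factor p53, 1 was higher and 3 lower in the first comparison (22.2%, beside 11.6% of all genes) and 1 was lower in the second (5.56%, beside 10.6%). Of the 18 estimates, 10 were above 0 and 8 below in the first (median 0.02), and 8 above and 10 below in the second (median -0.03). Cdkn1a, the cell cycle inhibitor and best known of these, was lower in both (-0.41, adjusted p = 0.000680, and -0.57, adjusted p = 1.14e-05, edgeR). The part of p53 in the Rrm2b values was not tested.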

How the data were processed

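Striatal RNA of 32 mice was polyA-selected and sequenced as paired reads. The authors deposited a table of raw read counts per gene, aligned to GRCm38.p6 per the labels. The aligner, counter and strand setting are not given in the sources used here. A second deposited table is named for FPKM, but each column sums to 1000000, so its values were read as TPM. It was used for levels between genes. Gene names and coordinates came from the GENCODE annotation, which held 54495 of 54532 identifiers.

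Counts were tested with edgeR 4.0.16 (R 4.3.3), with TMM scaling, filterByExpr (16610 genes), 1 model of 4 genotypes and robust quasi-likelihood tests, with Benjamini-Hochberg adjustment over all genes. A call needed an adjusted p under 0.05 and at least a 1.2-fold change, the thresholds of the study. Intervals are 95%. Single members were also tested by exact two-sided permutation of the difference in mean TMM-scaled log2 CPM, over 12870 arrangements. The biological coefficient of variation was 0.0985.

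Alternatives were DESeq2 1.42.0 without independent filtering, RLE scaling, no filter, at least 10 counts in every mouse, sex as a covariate, only the groups compared, a replicate block, other fold thresholds, each sex alone, and limma 3.58.1 on log2(TPM + 0.1) or log2(TPM + 1), mean TPM at least 0.1 or no filter. The scripts were tested on simulated data. Leaving out the 7 mice with choroid plexus markers above 500 CPM and the marker covariates were chosen after seeing the data.

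Values by group are given for each gene past both thresholds in any genotype comparison and for Lig1 and Fan1. Genes with an adjusted p under 0.05 at a smaller fold in a zQ175 comparison have values or means in at least the groups compared. Polb, Lig3, Mpg and Pold1, which passed so only in the averaged comparison, have that change without group values. The highest gene of each class has values by group, for Ddb1, Trp53bp1 and Rpa1 in wild-type and zQ175 mice only. Of other repair genes and p53 targets, those past both thresholds in both zQ175 comparisons are named. The genes and lists were chosen with earlier results of these data known. Promoter sequences are from RefSeq on GRCm38.p6.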

Additional observations from a re-analysis of the deposited data

Results flagged for a closer look

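In 3 of 60 sets of 8 mice (14 described genes and Msh3 in 4 genotypes) the lowest mouse stood far from the rest by Dixon's test, and chance gives 1 in 20, or 3. Ddb1 was 216 CPM in zQ175 female 2 and 233 to 244 CPM in the other 7 (gap over range 0.622). Fan1 was 8.95 CPM in zQ175 female 4 and 10.2 to 11.4 CPM in the others (0.557). Xrcc5 was 19.4 CPM in zQ175:Msh3-/- male 5 and 21.8 to 24.2 CPM in the others (0.539).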

How the results depend on the processing

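In zQ175 against wild-type the 5 genes called became 3 in males alone (Mutyh, Pole, Prkdc), 2 in females alone (Lig1, Xrcc2), 3 without the 7 mice with choroid plexus markers (Lig1, Pole, Xrcc2), 14 with no fold threshold and 1 (Pole) at 1.5-fold. In zQ175:Msh3-/- against Msh3-/- the 3 became 1 in females alone (Rrm2b), 7 in each of the 3 limma settings on TPM (Fen1, Lig1, Pold1, Prkdc, Rrm2b, Xpa, Xrcc5), 11 with no fold threshold and 0 at 1.5-fold. In the averaged zQ175 effect the 4 became 7 with limma on log2(TPM + 0.1) filtered, 22 with no fold threshold and 0 at 1.5-fold. For other repair genes in zQ175 against wild-type the 4 became 7 in each limma setting, 17 with no fold threshold and 1 at 1.5-fold. DESeq2 gave 4, 3 and 4 in the zQ175 comparisons. Counts for Msh3 loss, the interaction and sex were 0 in every alternative run. Fan1 in zQ175 against wild-type turned to -0.069 in females alone and -0.0058 without the 7 mice. The cause of these changes was not tested.

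The replicate numbers were checked for pairing by correlating deviations from the genotype mean between mice of one sex and different genotypes. Same-numbered mice gave -0.147 to 0.333 (median 0.0509, 14 of 45 over 0.1). Mice of other numbers gave -0.267 to 0.423 (median 0.0578, 60 of 147 over 0.1). Such correlations cannot show whether same-numbered mice share a litter or batch. With the replicate block the zQ175 counts were 4, 4 and 6 and the Msh3 counts 0. Of all called genes in zQ175 against wild-type, 40.6% were higher by counts and 59.9% by limma on TPM, which shifts the median of all genes to 0.07 and of the members to 0.13. In zQ175:Msh3-/- against Msh3-/-, limma on log2(TPM + 0.1) with the filter put these medians at 0.09 and 0.12. There 68.5% of all called genes were higher. The depth of 12359347 to 25030335 counts leaves Pole, Ung, Mutyh, Fanca and Fanci with few reads.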
